A study of Mus musculus with 8 samples.

Results

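Epithelial growth factor genes were examined in the lacrimal gland (LG), a source of the watery component of tears. The 9 genes were taken by their symbols from the table of raw read counts, and all 9 were found among its 24552 genes. They comprise 6 ligands of the ErbB receptors (Egf, Tgfa, Areg, Hbegf, Btc and Ereg), the fibroblast growth factors Fgf7 and Fgf10, and Hgf. RNA came from exorbital LGs of female C57BL/6J mice. The 4 AL mice ate ad libitum, and the 4 CR mice received 40% less food for 4 months. All were collected at 10 to 11 months of age. Per the methods of the study, restriction was reached stepwise and CR mice were fed once a day, shortly before lights went off. The labels do not say which of the cohorts of the study the libraries came from, and in one of these the CR chow was richer in vitamins and micronutrients. The labels name no transgene or deleted gene.

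Growth factors of this kind pass between neighbouring cells. The EGF family ligands are made as membrane-anchored precursors, are cut loose by ADAM proteases and bind EGFR, ERBB3 or ERBB4, with ERBB2 as a partner that has no ligand of its own. Receptor dimers phosphorylate each other and start the RAS and MAP kinase chain, which drives growth, migration and survival of epithelial cells. FGF7 and FGF10 are secreted by mesenchymal cells and act on the epithelial form of FGFR2, with heparan sulfate as a cofactor. FGF10 is required for the lacrimal bud to form in the embryo. HGF is likewise a mesenchymal product, is stored as an inactive chain until a protease cuts it, and acts on epithelial cells through MET.

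The ErbB ligands share the EGF-like domain, a fold held together by 6 cysteines, which the choice of genes did not use. It is shown for Egf, the most counted gene of the set, and for 4 relatives, so that the most and the least counted ligands can be read against each other. A search for the cysteine spacing in the coding sequence of GENCODE vM21 transcripts on GRCm38 found 1 copy of the growth factor pattern in each of the 6 ligands. The coding strand is given 5′ to 3′, and capitals mark the cysteine codons.
Egf: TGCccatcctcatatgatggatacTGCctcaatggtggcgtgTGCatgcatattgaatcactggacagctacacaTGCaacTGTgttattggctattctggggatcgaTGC
Tgfa: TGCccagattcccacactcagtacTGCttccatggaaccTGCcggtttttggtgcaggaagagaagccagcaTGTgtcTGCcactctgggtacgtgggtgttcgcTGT
Btc: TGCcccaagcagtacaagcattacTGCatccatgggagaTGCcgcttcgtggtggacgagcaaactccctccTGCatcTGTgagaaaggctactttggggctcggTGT
Areg: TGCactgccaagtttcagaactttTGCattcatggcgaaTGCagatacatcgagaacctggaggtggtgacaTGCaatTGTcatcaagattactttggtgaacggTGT
Ereg: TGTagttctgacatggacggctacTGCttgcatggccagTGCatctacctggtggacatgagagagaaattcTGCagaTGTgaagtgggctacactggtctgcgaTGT
The pattern spans 111 bases in Egf and 108 bases in Tgfa, Areg, Hbegf, Btc and Ereg, because Egf has 5 codons between cysteine codons 2 and 3 where the others have 4. It covers codons 982 to 1018 of 1217 in Egf, codons 46 to 81 of 159 in Tgfa and codons 69 to 104 of 177 in Btc. It covers codons 139 to 174 of 248 in Areg and codons 61 to 96 of 162 in Ereg. Among the 5 ligands of equal spacing, between 45.4 and 62.0% of the bases were identical in pairs, the highest being 67 of 108 for Btc with Tgfa and for Btc with Hbegf. The reads, however, came from the 3′ ends of the transcripts. None of the 526 windows of 75 bases in the last 600 bases of each of the 9 genes occurred in a transcript of another gene.

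Levels are given as CPM, counts scaled to a common library size with relative log expression (RLE) factors. Totals ranged from 12051881 to 22156511 counts per library. After scaling with the RLE factors, 3 counts, used as the floor, equal between 0.152 and 0.231 CPM. The floor covers counting error only, since the reads carry no molecular identifiers, whereas the confidence intervals below come from the fit across genes and include the spread between mice. The labelled tissue was checked against LG secretory genes, and all 11 of these were counted, with summed levels from 252167 to 340838 CPM in AL and from 149525 to 290058 CPM in CR, where replicates 1 to 3 lay below every AL library. The list did not move one way, with 9 negative and 2 positive log2 fold changes, none called. Car6 was the one whose CR libraries all lay above AL (19127 CPM on average in AL and 61395 CPM in CR), and Scgb2b20, Scgb1b20 and Obp1b had all CR libraries below AL, with log2 fold changes of -4.84, -4.59 and -1.85. Genes abundant in the parotid gland were counted too, at 239.5 to 23621 CPM in AL and at 18026 to 232065 CPM in CR, with CR replicate 4 the lowest of its diet. All 7 had positive log2 fold changes, from 3.57 to 9.85, and 3 were called higher, Prb1, Prh1 and Prp2. In these bulk samples fewer cells of a type and less RNA per cell cannot be told apart.

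Egf was the most counted growth factor, and no difference between diets was detected. Its level in AL replicates 1 to 4 was 11.9, 13.2, 12.1 and 16.4 CPM. In CR replicates 1 to 4 it was 8.48, 18.1, 9.09 and 16.1 CPM. The diets overlapped, with CR replicates 1 and 3 below every AL library and CR replicate 2 above them. AL averaged 13.4 ± 2.08 CPM and CR 12.95 ± 4.88 CPM (SD, n = 4 each). On the log2 scale CR was at -0.05 relative to AL, with a 95% confidence interval from -0.62 to 0.52 (adjusted p = 0.958, edgeR). This interval leaves room for a fold between 0.651 and 1.44. The submandibular gland is known as a rich source of EGF in mice, and its listed markers were split here. Klk1b26 and Ren1 had 0 counts in all libraries, and Klk1b9, Klk1b22, Muc19 and Smr2 had 38, 13, 3 and 1 counts over the 8 libraries. Mucl2 and Smr3a, also on the submandibular list, were abundant and not called, at 136656 and 2014 CPM on average in AL and at 81447 and 28414 CPM in CR, with every CR library of Smr3a above every AL library. The part of submandibular RNA in the level of Egf was not tested.

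Hbegf, which encodes heparin-binding EGF-like growth factor, was the tested member with the largest log2 fold change in the fit as reported. The AL libraries gave 3.46, 2.14, 3.79 and 3.14 CPM. From CR replicates 1 to 4 came 4.52, 4.85, 7.36 and 5.71 CPM. The diets did not overlap, CR being the higher, which held for no other member. AL averaged 3.13 ± 0.710 CPM and CR averaged 5.61 ± 1.27 CPM (SD, n = 4 each). The fold was 1.79, with a 95% confidence interval from 1.16 to 2.77, and the log2 fold change was 0.84 (standard error 0.29). The unadjusted p was 0.0126 in the edgeR quasi-likelihood test, and after Benjamini-Hochberg adjustment over the 11211 genes tested it was 0.154, so Hbegf was not called. An exact permutation test of the 8 libraries gave a two-sided p of 0.0286, the smallest that 4 against 4 allow. CR lay wholly above AL in 4.58% of all genes tested, and 8.62% were higher at an unadjusted p under 0.05, against 1 of the 6 tested members for either. Hbegf took between 9.64 and 16.8% of all growth factor CPM in AL and between 17.0 and 34.4% in CR.

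**Figure D1:**
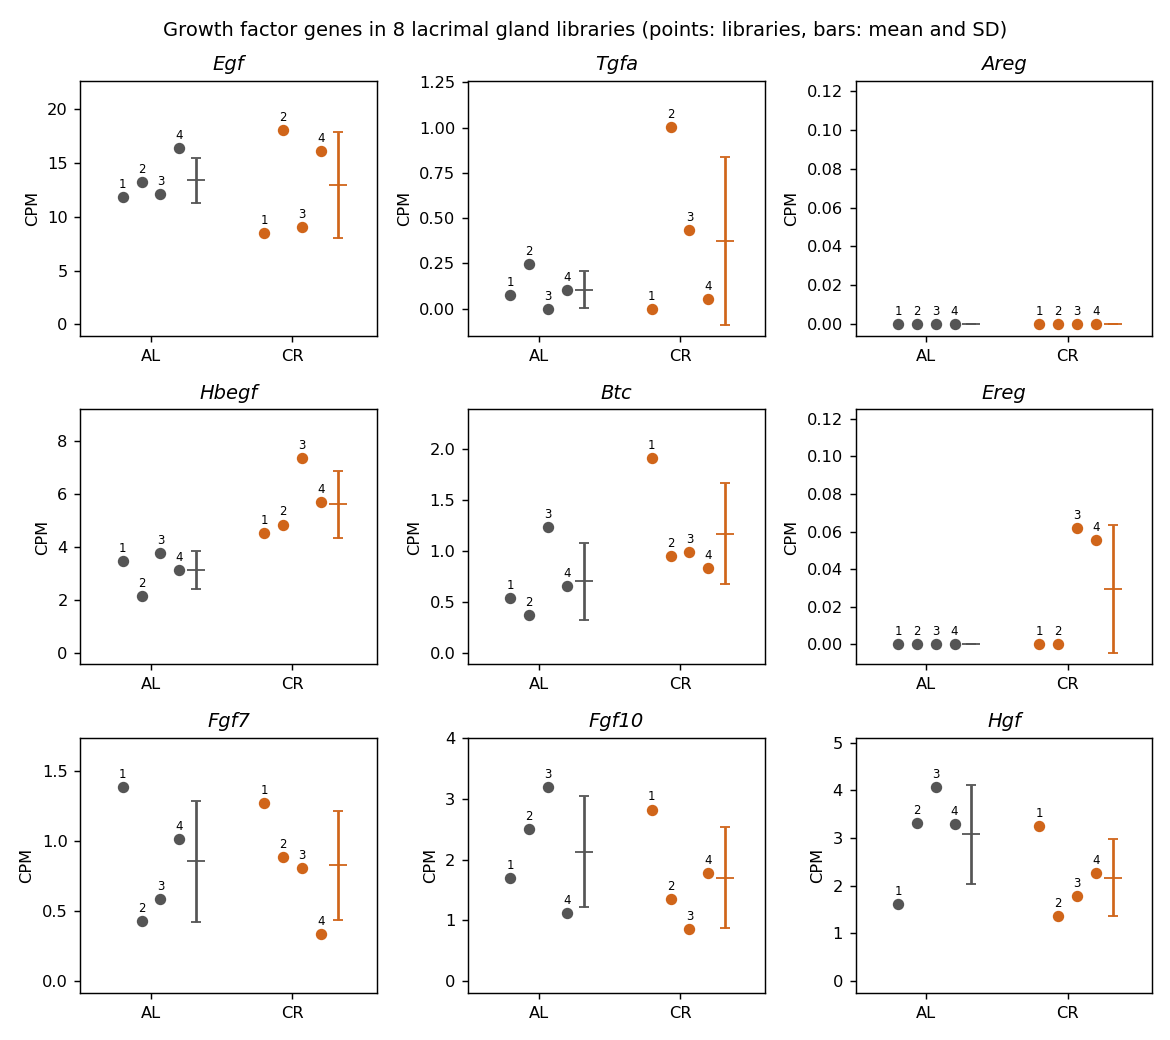
Level of each growth factor gene in CPM (vertical axis, linear, a scale of its own per panel) in the AL and CR libraries. Points are libraries with their replicate number, and the horizontal mark with its bar is the mean with the SD (n = 4 each); only in the Hbegf panel do all CR points, from 4.52 CPM, stand above all AL points, up to 3.79 CPM.

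Betacellulin, encoded by Btc, binds EGFR and ERBB4. In AL replicates 1 to 4 it had 0.539, 0.368, 1.24 and 0.659 CPM. CR replicates 1 to 4 had 1.91, 0.946, 0.990 and 0.832 CPM. Only CR replicate 1 exceeded all AL libraries. Its log2 fold change was 0.73 with a 95% confidence interval from -0.45 to 1.91 (edgeR adjusted p = 0.555), and it was 0.41 without CR replicate 1 and 1.14 without AL replicate 3.

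The other ErbB ligands had too few counts to be tested in the fit. Transforming growth factor alpha, encoded by Tgfa, had 1, 4, 0 and 2 counts in AL replicates 1 to 4 and 0, 17, 7 and 1 counts in CR replicates 1 to 4. Most of its 32 counts thus lay in CR replicate 2, which with CR replicate 3 was clearly above the floor, and the exact two-sided permutation test of the CPM gave p = 0.400. The mean difference, CR minus AL, was 0.268 CPM with all libraries and 0.0573 CPM without CR replicate 2. Ereg, which encodes epiregulin, had 1 count in each of CR replicates 3 and 4 and 0 counts in the other libraries (exact permutation p = 0.429). Areg, which encodes amphiregulin, had 0 counts in every library, which allows a level of up to 0.0234 CPM over all of them. A difference in Areg or Ereg was not detectable at this depth.

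The mesenchymal factors overlapped between diets in every case. Fgf7, also known as keratinocyte growth factor, had 1.39, 0.429, 0.582 and 1.01 CPM in the AL libraries. From the CR libraries came 1.27, 0.887, 0.804 and 0.333 CPM. The highest and the lowest library differed about as much within each diet, and the means were 0.853 ± 0.433 and 0.824 ± 0.386 CPM (SD, n = 4 each). That is a log2 fold change of -0.05, with a 95% confidence interval from -1.31 to 1.20 (edgeR adjusted p = 0.981).

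Fgf10 had 1.69, 2.51, 3.20 and 1.11 CPM in AL replicates 1 to 4. In CR replicates 1 to 4 it had 2.83, 1.36, 0.866 and 1.78 CPM. The lowest value was that of CR replicate 3 and the highest that of AL replicate 3, with the other libraries mixed between them. This gave a log2 fold change of -0.32, with a 95% confidence interval from -1.35 to 0.71 (edgeR adjusted p = 0.812). It was -0.06 without AL replicate 3 and -0.66 without CR replicate 1.

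Hgf stood at 1.62, 3.31, 4.08 and 3.29 CPM in the AL libraries. In CR replicates 1 to 4 it stood at 3.25, 1.36, 1.79 and 2.27 CPM. AL replicate 1 and CR replicate 1 lay on the side of the other diet. The means were 3.07 ± 1.04 and 2.17 ± 0.811 CPM (SD, n = 4 each). The difference on the log2 scale was -0.51, with a 95% confidence interval from -1.37 to 0.35 (edgeR adjusted p = 0.580). Once the fit held the parotid score, a summary of parotid gland genes, as a covariate, Hgf was at -5.8e-05 on the log2 scale. Fgf10 was then at -1.16 (edgeR adjusted p = 0.678), and neither was called. That score ran from 1.07 to 6.95 in AL and from 8.87 to 12.6 in CR, without overlap. A fit that holds it can therefore hardly tell parotid RNA from diet.

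In all, 0 of the 6 tested members were called higher and 0 were called lower (adjusted p under 0.05 with a fold of 1.5 or more), where 1.2% and 0.785% of all genes tested were called. The other 3 members were too rare for the test. The median log2 fold change of the 6 was -0.05, against 0.01 for all genes tested. Summed over the ErbB ligands, the level was 15.9, 15.99, 17.1 and 20.3 CPM in AL replicates 1 to 4 and 14.9, 24.9, 17.9 and 22.8 CPM in CR replicates 1 to 4. The sum of Fgf7, Fgf10 and Hgf was 4.69, 6.25, 7.86 and 5.42 CPM in AL and 7.35, 3.61, 3.46 and 4.38 CPM in CR. Both sums overlapped between diets.

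Counts of 3′ ends do not grow with transcript length, so no division by length was made, but capture can differ between genes and the order below is one of 3′ counts. In AL it ran Egf, Hbegf, Hgf, Fgf10, Fgf7, Btc and Tgfa, with Ereg and Areg both at 0 counts. Egf stood apart, with a lowest library of 11.9 CPM above the highest of any other member, 4.08 CPM for Hgf. Hbegf and Hgf overlapped in AL, as did Hgf and Fgf10, Fgf10 and Fgf7, and Fgf7 and Btc, whereas every AL library of Btc lay above every one of Tgfa. In CR, the lowest library of Hbegf, at 4.52 CPM, lay above the highest of Hgf, at 3.25 CPM, whereas Hgf, Fgf10 and Btc overlapped each other, as did Btc and Fgf7, and Fgf7 and Tgfa.

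Fgfr4 aside, the receptors were counted in most libraries, and of those tested only Fgfrl1 was called. Egfr averaged 7.30 ± 1.58 CPM in AL against 5.56 ± 1.48 CPM in CR (SD, n = 4 each), with a log2 fold change of -0.39 (95% confidence interval from -0.98 to 0.19). Erbb2 (-0.12, from -1.09 to 0.85) and Erbb3 (0.77, from -0.44 to 1.97) likewise had intervals that include 0. Erbb4 gave 2.85, 4.53, 3.57 and 6.64 CPM in the AL libraries. The CR libraries gave 1.06, 0.887, 1.36 and 4.88 CPM. CR replicates 1 to 3 were thus below all AL libraries and CR replicate 4 was not. For Erbb4 the log2 fold change was -1.10 (edgeR adjusted p = 0.324). Without CR replicate 4, the CR library with the lowest parotid sum, it was -1.997 (edgeR adjusted p = 0.0144), a call. The fit with the parotid score as covariate turned its sign, to 0.80 (edgeR adjusted p = 0.715). That score did not overlap between diets, so the fit can hardly tell it from diet. Met, the receptor of HGF, averaged 19.8 ± 5.98 CPM in AL against 14.4 ± 2.19 CPM in CR (log2 fold change -0.45, 95% confidence interval from -0.94 to 0.03). Without AL replicate 1, the highest at 28.2 CPM, Met was at -0.23.

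Fgfr2, the receptor through which FGF7 and FGF10 reach epithelial cells, had 2.85, 2.08, 1.24 and 5.88 CPM in the AL libraries. It had 4.88, 12.8, 5.38 and 5.16 CPM in the CR libraries. AL replicate 4 lay above all CR libraries other than replicate 2. Its log2 fold change was 1.21 (edgeR adjusted p = 0.207), and it was 0.76 without CR replicate 2 and 1.77 without AL replicate 4 (edgeR adjusted p = 0.541 and 0.0700). Fgfr1 had a log2 fold change of -0.41 (95% confidence interval from -1.26 to 0.44), which was -0.15 without CR replicate 3 and -0.77 without CR replicate 4. Fgfr3 had 75 counts in all, too few for the test, and Fgfr4 had 0.

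Fgfrl1 (Gene ID 116701), an FGF receptor relative that lacks the kinase domain, rose in CR. The AL libraries held 1.92, 2.88, 4.29 and 1.87 CPM. The CR libraries held 10.2, 10.2, 7.79 and 4.49 CPM. The diets did not overlap, although CR replicate 4 was close to AL replicate 3. Its log2 fold change was 1.58 (standard error 0.35, edgeR adjusted p = 0.0451). Fgfrl1 was called in 11 of 20 alternatives, and lost its call when any 1 library other than AL replicate 3 or CR replicate 4 was left out. Its log2 fold change ran from 1.42 to 1.87 as each library was left out in turn. Fgfrl1 also lost its call with upper-quartile factors (log2 fold change 1.54, adjusted p = 0.0505 in edgeR). The same held for totals that left out the 50 most counted genes (1.48, adjusted p = 0.0548 in edgeR). The parotid covariate, which did not overlap between diets, put Fgfrl1 at 0.57 on the log2 scale, not called (edgeR adjusted p = 0.783).

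**Figure D2:**
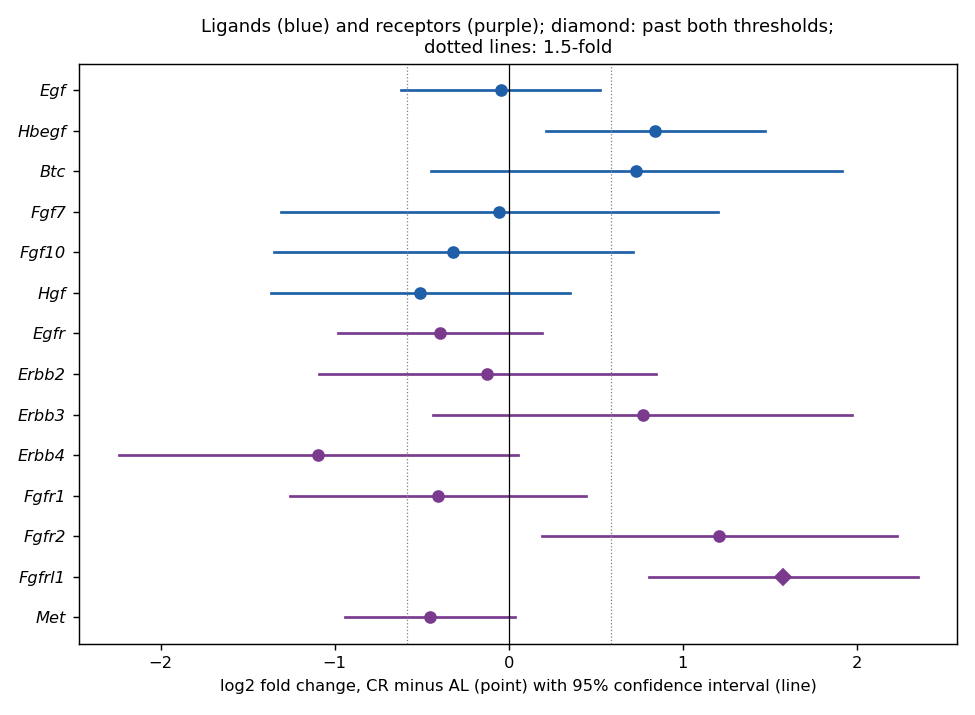
Log2 fold change, CR minus AL, of the 6 tested growth factors (blue) and the 8 tested receptors (purple), with the 95% confidence interval as a line and the 1.5-fold limits dotted. The interval of Hbegf runs from 0.22 to 1.47, and Fgfrl1, drawn as a diamond, is the gene past both thresholds.

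Beyond the ligands, 87 genes of the pathways were listed in 10 groups, of which 61 could be tested. Of these, 1 was called higher (Fgfrl1) and 1 lower (Ccnd1), where 1.2% and 0.785% of all genes tested were called. The median log2 fold change was -0.07. CR lay wholly above AL in 1 of the 61 genes and wholly below in 3, against 4.58% and 5.2% of all genes tested. At an unadjusted p under 0.05 in edgeR, 5 were higher and 4 lower, against 8.62% and 8.1% of all genes tested. These genes, chosen for naming after their values were seen, were Fgfr2, Fgfrl1, Hs6st1, Etv1 and Ier3 on the higher side and Sdc1, Sos1, Etv5 and Ccnd1 on the lower.

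Upstream of the receptors no listed gene was called. The 5 tested genes of ligand shedding, among them the protease Adam17 that releases most ErbB ligands, ranged from -0.68 to 0.08 on the log2 scale. All 4 tested genes of HGF activation and its inhibitors had positive log2 fold changes, from 0.05 to 0.94. Related ligands were mostly rare, and 9 of 11 could not be tested, Epgn, Nrg3 and Fgf22 among them at 0 counts. Of the rare genes, Nrg2 and Rhbdl2 are named because their diets did not overlap, which is a description of few counts. Their means were 0.853 and 0.550 CPM in AL against 0.375 and 0.0896 CPM in CR, and the nearest libraries of Nrg2 had 0.674 and 0.666 CPM. Without a filter on low counts their adjusted p in edgeR was 0.516 and 0.352.

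Heparan sulfate holds FGFs and HB-EGF at the cell surface. Of 10 tested genes of its carriers and modifying enzymes, none was called. Sdc1, which encodes the epithelial heparan sulfate carrier syndecan-1, gave 5.16, 5.33, 5.97 and 3.95 CPM in the AL libraries. Its CR libraries gave 3.46, 2.84, 3.40 and 3.22 CPM. All CR libraries were below all AL libraries, with a log2 fold change of -0.66 (edgeR adjusted p = 0.216). In the MAP kinase chain, 16 of 16 genes were tested and none was called. Sos1, the exchange factor that loads RAS with GTP, averaged 19.3 ± 1.39 CPM in AL against 13.7 ± 1.13 CPM in CR (SD, n = 4 each), also without overlap (log2 fold change -0.49, edgeR adjusted p = 0.141). The 8 tested feedback inhibitors ranged from -0.67 to 0.85, and their median was 0.02.

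The early targets of the pathway did not move one way. Ccnd1 (Gene ID 12443), which encodes cyclin D1 and is induced by growth factors at entry into the cell cycle, fell in CR. Levels were 51.6, 51.1, 36.6 and 57.8 CPM in the AL libraries. They were 14.5, 15.9, 18.7 and 20.97 CPM in the CR libraries. The lowest AL library thus lay above the highest CR library, and the log2 fold change was -1.49 (standard error 0.19, edgeR adjusted p = 0.00408). It was called without each library in turn and in all other alternatives but the fit with the parotid covariate. That fit gave -1.06 (edgeR adjusted p = 0.350), but its covariate did not overlap between diets and can hardly be told from diet. The ETS factors Etv1 and Etv5 differed in sign, at 1.22 and -1.23 on the log2 scale, and neither was called (edgeR adjusted p = 0.0593 and 0.121). Etv1 reached 42.6, 38.2, 40.2 and 31.7 CPM in the AL libraries. It reached 107.1, 112.4, 99.8 and 35.9 CPM in the CR libraries. CR replicate 4 was thus within the AL range, and Etv1 was called higher without it and in 5 of 20 alternatives in all. Ier3, an immediate early gene of the MAP kinase chain, averaged 6.24 ± 2.26 CPM in AL against 12.4 ± 3.91 CPM in CR and was not called (edgeR adjusted p = 0.111), but was called higher in 4 of 20 alternatives.

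**Figure D3:**
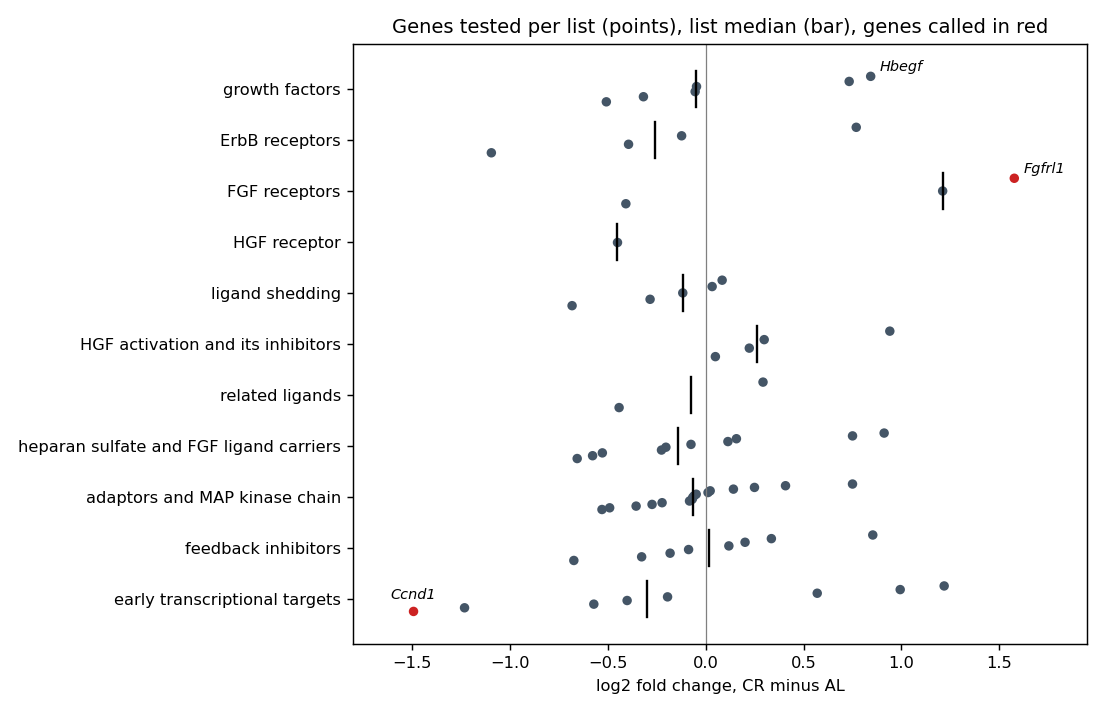
Log2 fold change, CR minus AL, of every tested gene (points) in the growth factors and the 10 pathway groups, with the median of each group as a bar. Called genes are red, namely Fgfrl1 at 1.58 and Ccnd1 at -1.49, and most groups lie on both sides of 0.

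Marker genes of the cells that make or receive these factors were summed in each library. The summed epithelial markers ranged from 228.8 to 273.7 CPM in AL and from 262.4 to 361.0 CPM in CR, with none of 7 tested called. Their log2 fold changes, 4 positive and 3 negative, ran from -0.91 for Krt5 to 0.66 for Krt18. Only Krt18 did not overlap between diets, CR being the higher. Fibroblast markers, from cells of the kind that make FGF7, FGF10 and HGF, summed to between 177.1 and 302.2 CPM in AL and between 147.3 and 214.9 CPM in CR. Of 10 tested, 8 had negative log2 fold changes, and 2 were called lower, the collagen genes Col1a1 and Col3a1. Dpt, at -1.04, did not overlap between diets and was not called. The positive values were those of Pdgfrb (0.35) and Dcn (0.22), and Dcn made up much of the sum, with 108.9 CPM in AL and 126.8 CPM in CR. Leukocytes, a known source of several ErbB ligands, had lower marker sums in every CR library, from 38.5 to 69.1 CPM against 71.2 to 243.8 CPM. Mast cell markers showed the same order (8.58 to 13.4 CPM in CR and 15.01 to 26.6 CPM in AL). Adipocyte markers had the opposite order, with 17.5 to 55.2 CPM in CR and 4.37 to 11.0 CPM in AL. All 3 tested adipocyte markers had positive log2 fold changes, and 1 was called higher, Fabp4 (2.37, edgeR adjusted p = 0.0208), whereas no leukocyte or mast cell marker was called and all 5 tested of each were negative. The myoepithelial sums overlapped slightly (125.4 to 215.8 CPM in AL and 60.0 to 126.8 CPM in CR), and all 5 tested markers had negative log2 fold changes, from -0.97 to -0.64, none called. The endothelial sums overlapped as well. Skeletal muscle markers were at 56.9 and 34.9 CPM in CR replicates 2 and 4 and at 9.85 CPM or less in the other libraries. CR replicate 2 was also the highest library for Fgfr2 and Tgfa, whereas CR replicate 4 had 5.16 CPM of Fgfr2 and 0.055 CPM of Tgfa. The part of muscle RNA in either gene was not tested. The part of these cells in the difference of Hbegf was not tested. Without CR replicate 4, the CR library with the least parotid RNA, the log2 fold change of Hbegf was 0.83. The fit with the parotid covariate gave 0.97 (edgeR adjusted p = 0.550), but that covariate did not overlap between diets. The part of parotid RNA in the difference of Hbegf was not tested.

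**Figure D4:**
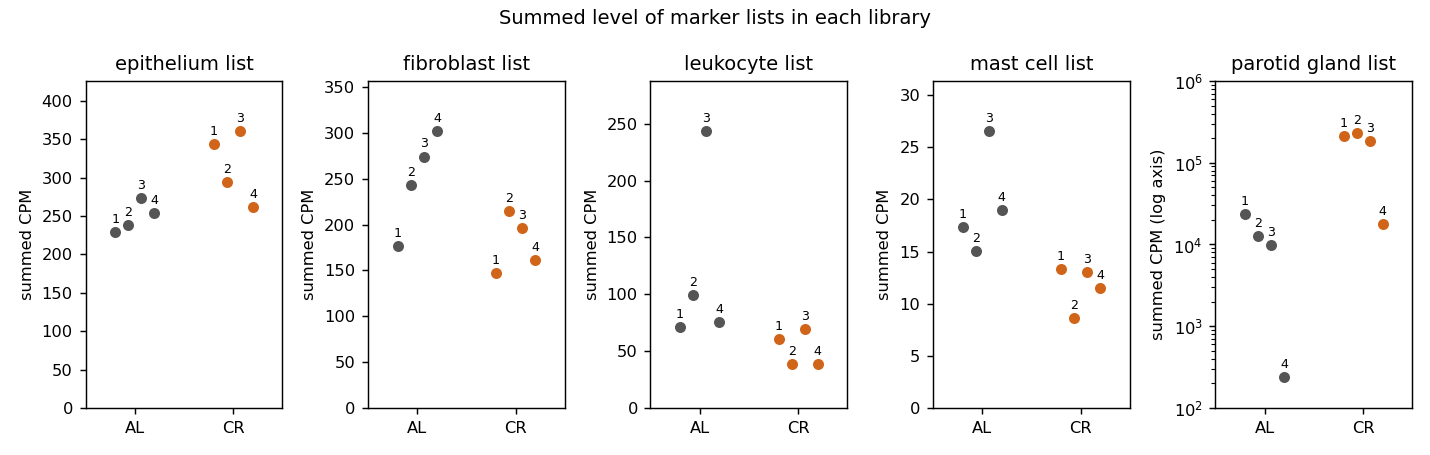
Summed level of 5 marker lists in CPM (vertical axes, linear from 0, logarithmic for the parotid list) by diet, each point being a library with its replicate number. CR libraries lie below AL libraries for leukocyte and mast cell markers. The parotid sum of CR replicate 4 lies among the AL sums, whereas its parotid score, 8.87, lies above the highest AL score, 6.95.

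For each tested member, the genes with the most similar pattern over the 8 libraries were sought by the Pearson correlation of log2 CPM among the other genes tested, as a description. The points share the diet and the library, and each value is among the highest of all genes searched. They were Mzt1 and Vta1 for Egf (r = 0.970 and 0.956), Eef2k and Mxi1 for Hbegf (0.970 and 0.953) and Camk2n2 and Kat6b for Btc (0.979 and 0.967). For Fgf7 they were Slc25a15 and Ift172 (0.950 and 0.937), for Fgf10 Slc2a4rg-ps and Pced1a (0.955 and 0.949) and for Hgf Pip5k1c and Mea1 (0.966 and 0.953).

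**Figure D5:**
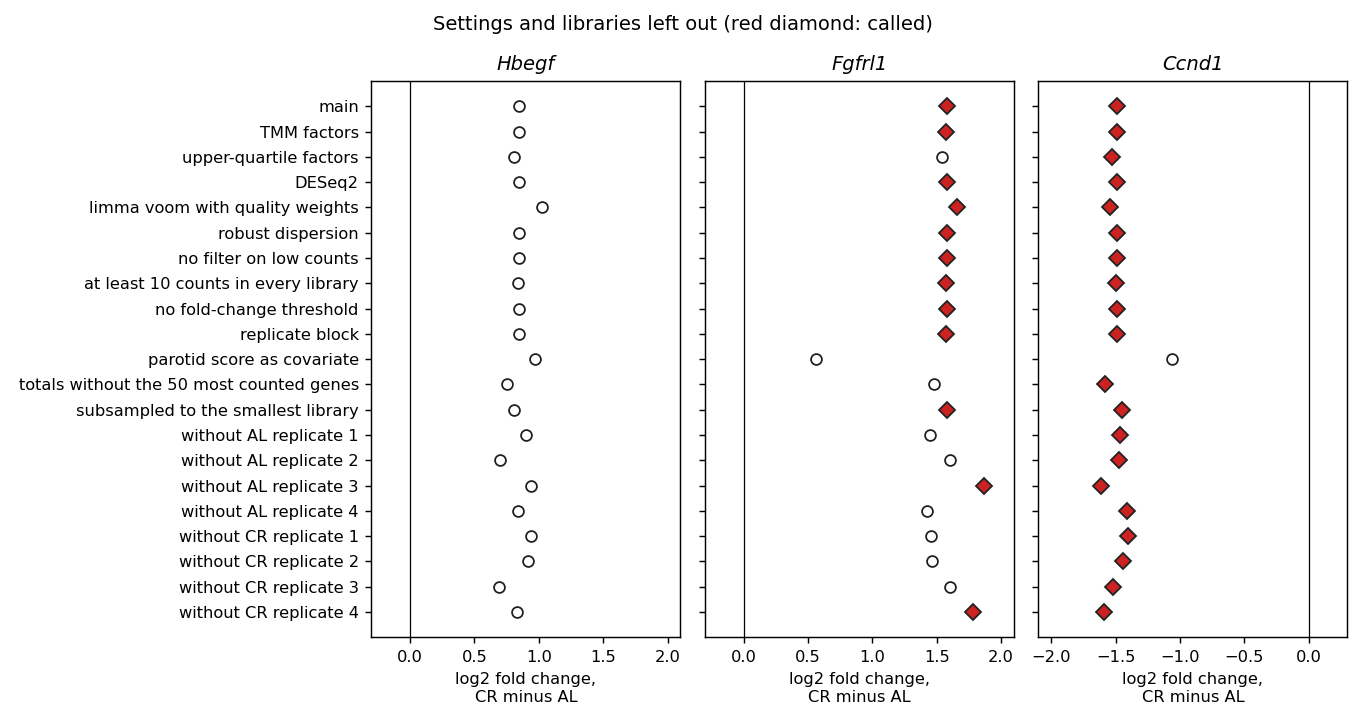
Log2 fold change, CR minus AL, of Hbegf, Fgfrl1 and Ccnd1 under the analysis as reported (top) and its 20 alternatives, a red diamond where the gene was called. Hbegf stays between 0.69 and 1.03 and is never called, Fgfrl1 is called in 11 alternatives, and Ccnd1 in 19.

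On GRCm38, as GENCODE vM21 annotates it, Egf (Gene ID 13645) lies on the minus strand of chromosome 3 from 129677565 to 129755316 with 24 exons, and Tgfa (21802) on the plus strand of chromosome 6 from 86195223 to 86275719 with 6. Ereg (13874, 91074622 to 91093646), Areg (11839, 91139599 to 91148432) and Btc (12223, 91357261 to 91402994) are neighbours on chromosome 5, the first pair on the plus and Btc on the minus strand. Of this cluster, Btc was counted in all 8 libraries and Areg in none. Hgf (15234) lies on the same chromosome, far off, from 16553495 to 16620152. Fgf7 (14178) is on chromosome 2 from 126034658 to 126091185 and Fgf10 (14165) on chromosome 13 from 118669791 to 118792115. Hbegf (15200) is on the minus strand of chromosome 18 from 36504927 to 36515805 with 6 exons. Exons on the other strand overlap Egf (6330410L21Rik and Gm42697), Tgfa (Gm43917), Ereg (Gm19610) and Fgf10 (Gm16263), and those of Gm43489 overlap Hgf on its own strand. The library kit keeps strand, but the strand setting of the counting is not given in the sources used here, so reads of these pairs could be mixed. No annotated exon of another gene overlaps Areg, Hbegf, Btc or Fgf7.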

How the data were processed

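RNA of 8 LGs was measured by sequencing from the 3′ end. The authors deposited raw counts per gene, made with HTSeq from reads of 75 bases that cutadapt had trimmed and STAR had aligned to mm10. The deposited log2 values are log2 of the counts divided by DESeq2's RLE size factors plus 1. They were recomputed to within 0.000124 and left aside. Tool versions of the authors are not given in the sources used here.

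Of 24557 listed genes, 5 repeated symbols were dropped. Of the rest, 16735 had a count and 11211 passed edgeR's filterByExpr. The diets were compared with edgeR 4.0.16 under R 4.3.3 (RLE factors, quasi-likelihood F test, Benjamini-Hochberg adjustment over all genes tested), and calls needed an adjusted p below 0.05 and a change of 1.5-fold or more. Standard errors were derived from the log2 fold change and the F statistic. Rare genes were compared by exact two-sided permutation tests of CPM. The pipeline was tested on simulated data. Totals of 12051881 to 22156511 counts set the depth, and the biological coefficient of variation was 34.7%.

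Named are the 9 members, the receptors, pathway genes that were called or did not overlap, the summed markers, and the 2 genes most similar to each tested member. Pathway genes with an unadjusted p under 0.05 and single markers were added after their values were seen. The members and lists were chosen with earlier results of these data known. A submandibular marker is not reported here. The parotid score is the mean log2 CPM of 7 parotid genes. It did not overlap between diets, so the fit that holds it can hardly tell it from diet. Results were recomputed with TMM or upper-quartile factors, DESeq2 1.42.0, limma 3.58.1 voom with quality weights, robust dispersion, no filter, a minimum of 10 counts per library, no fold threshold, a replicate block, the parotid score as covariate, totals without the 50 most counted genes, subsampling to the smallest library, and leaving out each library in turn.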

Additional observations from a re-analysis of the deposited data

Results flagged for a closer look

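In 3 of 37 groups of 4 libraries, taken over the members and the named pathway genes, 1 library stood far from the other 3 of its diet by Dixon's ratio. Chance flags about 1 in 20 such groups. The first was Btc in CR replicate 1, at 1.91 CPM (ratio 0.854). The second was Erbb4 in CR replicate 4, at 4.88 CPM (ratio 0.881), the CR library with the least parotid RNA. The third was Fgfr2 in CR replicate 2, at 12.8 CPM (ratio 0.936). Each was the highest library of CR.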

How the results depend on the processing

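No member was called higher or lower under any of the 20 alternatives. Hbegf kept its direction in all of them, with log2 fold changes from 0.69 to 1.03 and adjusted p from 0.0697 (voom) to 0.550 (parotid score). Some values turned sign, none of them called as reported or in the fit that turned it. Egf ranged from -0.24 to 0.12 when 1 library was left out and was at 0.19 with the parotid covariate, 0.06 without AL replicate 4, 0.12 without CR replicate 1 and 0.09 without CR replicate 3. Fgf7 ranged from -0.33 to 0.27 when 1 library was left out and was at -0.64 with the parotid covariate, 0.25 with voom, 0.014 after subsampling, 0.27 without AL replicate 1, 0.04 without AL replicate 4 and 0.21 without CR replicate 4. Erbb2 ranged from -0.44 to 0.14 when 1 library was left out and was at 0.62 with voom, 0.018 with the replicate block, 0.14 without AL replicate 3 and 0.03 without CR replicate 1. The parotid covariate, which did not overlap between diets, put Egfr at 0.060, Erbb4 at 0.80 and Fgfr1 at 0.34. The cause was not tested. Leaving out 1 library gave -0.76 to -0.33 for Hgf, -0.54 to -0.23 for Egfr and 0.53 to 1.04 for Erbb3.

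Pathway genes called higher, 1 as reported, numbered 3 with DESeq2, with voom and with the replicate block, 2 without a filter, and 0 with upper-quartile factors, the parotid score or totals without the 50 most counted genes. Leaving out 1 library gave 0 to 3. Those called lower, 1 as reported, numbered 0 with the parotid score and 1 to 2 when 1 library was left out, 2 being without CR replicate 4 (Ccnd1 and Erbb4). Beside Fgfrl1, the genes called higher were Etv1 in 5 alternatives and Ier3 in 4. Over all genes, 134 were called higher and 88 lower, against 413 and 316 with DESeq2, 388 and 312 with the replicate block, 4 and 0 with the parotid score, 453 and 247 without CR replicate 4, and 35 and 26 without AL replicate 2.

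The labels number the libraries 1 to 4 in both diets. No label says what a number shares. Deviations of same-numbered libraries correlated at 0.0795 to 0.462, not all high enough to take the numbers as pairs, although 3 of 4 AL libraries correlated best with their own number, a hint from the data. The block called Etv1 (adjusted p = 0.00940) and Ier3 (0.0185) beside Fgfrl1 and no member, with an adjusted p of 0.0809 for Hbegf.

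Depth limits Tgfa, Ereg and Areg, whose totals were 32, 2 and 0 counts. For Btc, 2 alternatives gave no value, and for Fgf7 and Erbb3 1 each, since these genes failed the filter.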
